A study of Mus musculus with 9 samples.

Results

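MicroRNA loci are the short genes from which microRNA hairpins are cut, and 128 of them carried a measurable signal in RNA of mouse oocytes with and without MTR4. They were chosen by their values: a row of the authors' expression table was taken when its symbol began with Mir or Mirlet and a number and its FPKM was at least 1 in at least 1 of 4 columns. FPKM is the number of fragments scaled to gene length and to the library's total, so each value is relative to its column. The table held 615 rows with such symbols among 23235 gene symbols. The other 487 stayed below 1 FPKM, 479 of them at 0 in all 4 columns and 8 slightly above 0. The lowest peak values inside the threshold were 5.12 FPKM for Mir433 in MTR4-null nuclei, 5.53 FPKM for Mir546 in WT cytoplasms and 5.61 FPKM for Mir29c in MTR4-null cytoplasms. Just outside lay the microRNA host transcript Mir17hg at 0.953 FPKM in MTR4-null nuclei, then Mir3069 at 0.00539 FPKM in WT nuclei.

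Oocytes were taken from mice at day 21, and each nucleus was drawn off from its cytoplasm by micromanipulation. Each sample for total RNA sequencing held 10 nuclei or 10 cytoplasms. The groups were MTR4-null nuclei with 2 libraries, WT nuclei with 3, MTR4-null cytoplasms with 2 and WT cytoplasms with 2. The sources used here do not give how the null allele was made or what drives its deletion. The deposited table has 1 column per group, so every value below is a group value without a replicate check, and no test could be run. In such pooled material, fewer cells of a type and less RNA per cell cannot be told apart.

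A microRNA begins as part of a long primary transcript. In the nucleus Drosha and its partner Dgcr8 cut out a hairpin, Xpo5 exports it, Dicer1 trims it in the cytoplasm, and an Argonaute protein carries the mature strand, whose seed (bases 2 to 8) pairs with target mRNAs. MTR4 is an RNA helicase that unwinds nuclear RNAs, among them by-products of transcription and processing, and feeds them to the exosome for degradation. Mouse oocytes have long been known for weak microRNA activity. The libraries were selected at 300 to 400 bp, while the hairpins of these loci are 63 to 132 nt long (median 85 nt) and the mature strands 16 to 26 nt. A value at a locus therefore counts fragments assigned to the hairpin's place in the genome, and mature microRNA was not measured as such.

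RefSeq (build GRCm38.p6) held a hairpin for 114 of the 128 loci, 111 by symbol and 3 by an older name. The 14 without an entry were Mir133a-2, Mir181c, Mir1893, Mir1901, Mir1938, Mir1940, Mir1949, Mir3096, Mir466i, Mir505, Mir5098, Mir5117, Mir706 and Mir875. Mature strands were listed for 113 loci, with 161 distinct seeds, of which 7 were shared by 2 or more loci. The seed shared most widely was that of the let-7 family, whose members time development in animals. It occurred at 5 loci, all listed above 0 only in MTR4-null nuclei, and is shown in capitals.
let-7c-5p (Mirlet7c-2): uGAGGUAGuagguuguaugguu
let-7d-5p (Mirlet7d): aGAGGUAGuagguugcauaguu
let-7f-5p (Mirlet7f-1): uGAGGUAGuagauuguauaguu
let-7i-5p (Mirlet7i): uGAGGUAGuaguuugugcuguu
miR-1961 (Mir1961): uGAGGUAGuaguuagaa

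The miR-17-92 cluster and its paralogues, known for promoting cell proliferation, had 4 loci with signal. These are their main strands, again with the seed in capitals, and the first and second share it.
miR-106b-5p (Mir106b): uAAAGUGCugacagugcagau
miR-20a-5p (Mir20a): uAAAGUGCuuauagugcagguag
miR-18a-5p (Mir18): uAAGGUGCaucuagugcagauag
miR-19a-3p (Mir19a): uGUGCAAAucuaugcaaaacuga

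Mir5131, Mir5133, Mir762 and Mir22 are among the loci with the highest values or the widest gaps between columns. The mature strands are given to show what the rows are named for, with the seed in capitals. The hairpin of Mir5131 has a GC content of 79.6%, that of Mir5133 71.4%, that of Mir762 82.9% and that of Mir22 55.8%.
miR-5131 (Mir5131): cGGCGCCCcacggagccccgagc
miR-5133 (Mir5133): gCUGGAGCugcggcagcgcag
miR-762 (Mir762): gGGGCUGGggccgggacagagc
miR-22-3p (Mir22): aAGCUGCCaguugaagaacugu

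A last set shows 3 hairpins of different sequence that share a length of 83 nt, because their values turned out to be equal to within 0.01%. Mir1898 lies in an intron of Zfr at chr15:12171492-12171574 on the plus strand. Mir1941 lies in an intron of the antisense transcript Gm35853, opposite an intron of Krt80, at chr15:101369352-101369434 on the plus strand. Mir3060 lies in an intron of Rnf215 at chr11:4139364-4139446 on the plus strand. Capitals mark the annotated mature strands, and coordinates are those of GRCm38.p6.
Mir1898: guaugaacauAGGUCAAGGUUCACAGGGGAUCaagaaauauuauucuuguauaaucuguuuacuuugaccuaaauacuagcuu
Mir1941: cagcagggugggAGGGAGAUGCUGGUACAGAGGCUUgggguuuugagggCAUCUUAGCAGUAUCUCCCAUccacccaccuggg
Mir3060: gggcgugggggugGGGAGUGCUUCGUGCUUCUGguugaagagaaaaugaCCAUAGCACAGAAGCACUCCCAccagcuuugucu

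MTR4-null nuclei held signal at far more of the loci than any other group. There 100 of the 128 loci reached 1 FPKM, against 42 in WT nuclei, and 49 did so in MTR4-null cytoplasms, against 35 in WT cytoplasms. Of the 128 loci, 50 were in the set through MTR4-null nuclei alone. On the length scale described below, 63 loci were at 1 FPKM or more in MTR4-null nuclei and at 0 in WT nuclei. Of these, 27 lay below the lowest value seen in WT nuclei. Loci listed at exactly 0 numbered 23 in MTR4-null nuclei and 80 in WT nuclei, and 76 in MTR4-null cytoplasms and 89 in WT cytoplasms. Values above 0 but below 0.01 FPKM were counted apart, since they lie far below the rest. They numbered 4 in MTR4-null nuclei, 5 in WT nuclei, 3 in MTR4-null cytoplasms and 3 in WT cytoplasms, each at a locus that overlaps an exon of another gene. Zeros were rare elsewhere in the table: of all 14270 rows that reached 1 FPKM in some column, 1.002% were at 0 in MTR4-null nuclei, 2.75% in WT nuclei, 1.93% in MTR4-null cytoplasms and 3.46% in WT cytoplasms. The share of zeros among the microRNA loci was 18.0%, 62.5%, 59.4% and 69.5% in the same order. The 83 loci of small nucleolar and Cajal body RNAs, another class of short genes, had 8.43%, 36.1%, 43.4% and 80.7% at 0.

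**Figure D1:**
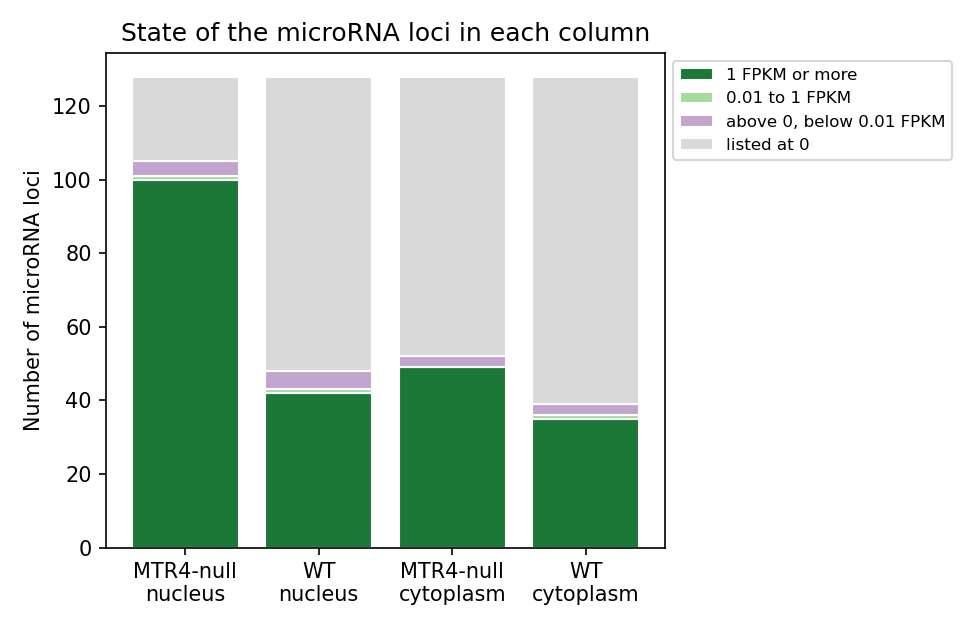
Number of the 128 microRNA loci in each state (vertical axis) in each of the 4 columns (horizontal axis), stacked from 1 FPKM or more at the bottom to loci listed at 0 at the top. MTR4-null nuclei have 100 loci at 1 FPKM or more and 23 at 0, against 42 and 80 in WT nuclei.

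The greater number of loci did not come with a greater total. Summed over the 128 loci, the signal was 33482 FPKM in MTR4-null nuclei, or 3.80% of that column, against 35688.5 FPKM, or 4.18%, in WT nuclei. In the cytoplasm the sum was 29048 FPKM in MTR4-null oocytes, or 6.71% of the column, against 12992 FPKM, or 3.12%, in WT oocytes. The median of the loci at 1 FPKM or more was 59.4 FPKM in MTR4-null nuclei and 124 FPKM in WT nuclei, and 62.4 FPKM in MTR4-null cytoplasms and 68.3 FPKM in WT cytoplasms. The 5 highest loci of a column held 66.3% of its microRNA signal in MTR4-null nuclei, 80.5% in WT nuclei, 57.7% in MTR4-null cytoplasms and 76.7% in WT cytoplasms.

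Most loci appeared in a single column. Values above 0 were found in 1 column for 69 loci, in 2 for 22, in 3 for 17 and in all 4 for 20. With values below 0.01 FPKM set aside, 50 loci were present in MTR4-null nuclei alone, 11 in WT nuclei alone, 4 in MTR4-null cytoplasms alone and 7 in WT cytoplasms alone. Another 14 loci were present in all 4 columns and 11 in both MTR4-null columns but in neither WT column. A locus present in a single column reached the threshold of 1 FPKM through that column. The single-column counts therefore depend in part on how the loci were chosen. No matching share over all rows is given here, so the counts cannot be read against a background. The 50 loci of MTR4-null nuclei ranged from 5.12 to 306 FPKM, with a median of 34.0 FPKM. Their highest was Mir191 at 306 FPKM, followed by Mir24-1 at 210 FPKM, Mir3104 at 186 FPKM and Mir5121 at 184 FPKM, each listed at 0 in the other 3 columns. This order depends on hairpin length, which was 74, 68, 63 and 74 nt. On the length scale described below Mir191 was still the highest, while Mir3104 lay at the commonest value of the column. Mir5121 lies in an exon of Rpl13a, a ribosomal protein gene, which had 132 FPKM in MTR4-null nuclei and 123 FPKM in WT nuclei. The 11 loci found in WT nuclei alone ranged from 17.5 to 338 FPKM and included Mir5117 at 338 FPKM, Mir290 at 183 FPKM and Mir582 at 111 FPKM. Each of these was listed at 0 in MTR4-null nuclei and in both cytoplasms.

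Many of the values in MTR4-null nuclei were the same number over and over, once hairpin length was taken into account. Mir1898, Mir1941 and Mir3060, the 83 nt hairpins shown above, each stood at 32.4 FPKM there, and Mir3066, also of 83 nt, stood at 64.7 FPKM, 2 times as much. At 82 nt, Mir106b, Mir1905 and Mir2861 each had 69.0 FPKM, while Mir1247 and Mir19a each had 138 FPKM. At 78 nt, Mir5134 and Mir547 each had 45.2 FPKM and Mir878 had 135.6 FPKM, 3 times as much. At 85 nt, Mir3074-1 and Mirlet7i both had 28.6 FPKM, and at 95 nt Mir221 and Mirlet7c-2 both had 16.7 FPKM. These are separate genes whose rows agree in length and in value. In all, 9 groups of 2 or 3 loci of equal length had equal values in MTR4-null nuclei, to within 0.01%, and 1 pair did so in WT nuclei, Mir680-1 and Mir690 at 102 FPKM.

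A smooth curve through the lowest value at each of 23 hairpin lengths gave the size of 1 such step in MTR4-null nuclei. Loci at 1 FPKM or more had 41 different lengths, and 18 of these were left out because their lowest value lay more than 5% off the curve, at 1.67 steps for Mir705 and 0.731 steps for Mir1190, for example. At the lengths kept, by that choice, the curve missed the lowest values by no more than -1.19% to 0.881%. It put 1 step at 86.8 FPKM for a hairpin of 70 nt, 39.3 FPKM at 80 nt, 21.6 FPKM at 90 nt, 13.2 FPKM at 100 nt and 5.95 FPKM at 120 nt. Of the 90 loci with a hairpin length at 1 FPKM or more, 80 lay within 10 steps, and 68 of these, or 85.0%, were within 0.05 of a whole number of steps, a window that covers 10% of the scale. The curve was drawn through 30 of them, which therefore lie at 1 step. Of the 50 others within 10 steps, 38, or 76.0%, were also within 0.05 of a whole number: 1 at 1 step, 19 at 2, 8 at 3, 4 at 4, 4 at 5 and the rest higher. Of these 50, whole numbers of steps were found at 19 of 28 loci over an exon of another gene, or 67.9%, and at 19 of 22 loci that overlap no exon, or 86.4%. Whether 1 step is 1 sequenced fragment was not tested.

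**Figure D2:**
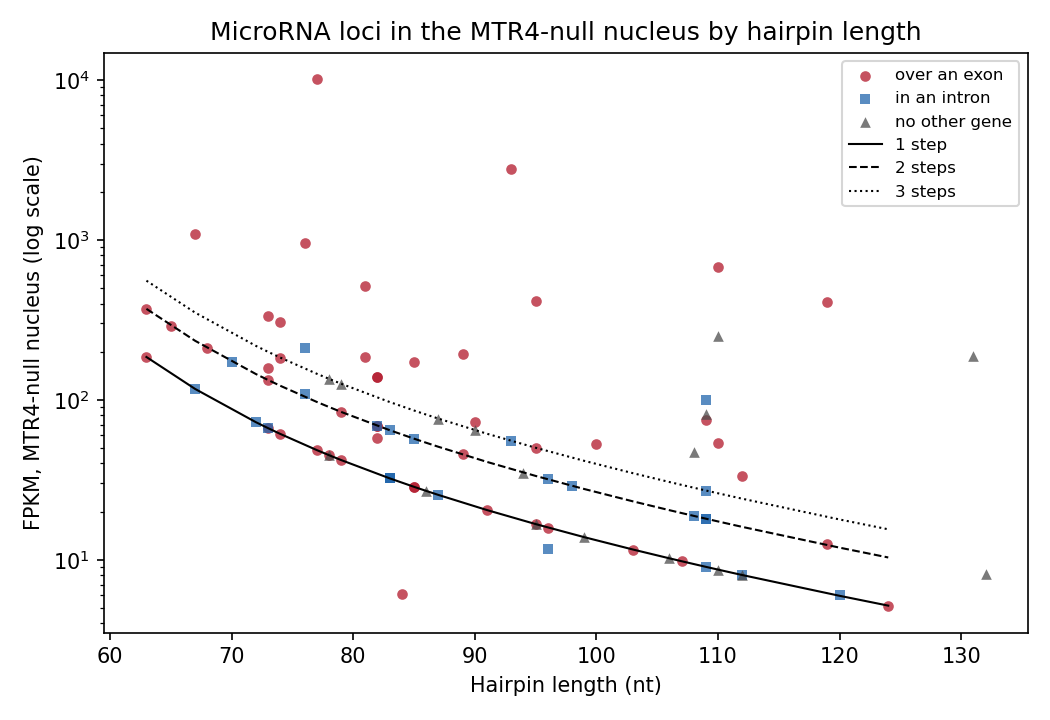
FPKM in MTR4-null nuclei (vertical log axis) against hairpin length in nt (horizontal axis) for the loci with a RefSeq hairpin at 1 FPKM or more, with red circles for loci over an exon, blue squares for loci in an intron and grey triangles for loci outside other genes. Black lines show 1, 2 and 3 steps, of which 1 step falls from 86.8 FPKM at 70 nt to 5.95 FPKM at 120 nt, and most points lie on a line.

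On this length scale the columns differ in the smallest signal they hold. Among loci that overlap no exon, the lowest value was 0.731 steps in MTR4-null nuclei, at Mir1190, and 1.32 steps in WT nuclei, at Mir744. The lowest was 0.397 steps in MTR4-null cytoplasms, at Mir10a, and 0.542 steps in WT cytoplasms, at Mir1945. The value shared most often, to within 1%, was 1.001 steps in MTR4-null nuclei, at 17 loci, and 2.82 steps in WT nuclei, at the 5 loci Mir802, Mir1936, Mir713, Mir681 and Mir103-2. It was 0.397 steps in MTR4-null cytoplasms, at Mir10a, Mir27a, Mir194-2 and Mir5135, and 0.726 steps in WT cytoplasms, at Mir27a and Mir365-2. For a given length, the lowest and the commonest values were thus lower in MTR4-null nuclei than in WT nuclei. Of the 50 loci present in MTR4-null nuclei alone, 45 have a hairpin length, and 20 of these stood at 1 step, 16 at 2 and 4 at 3. The 8 with a length among the 11 loci of WT nuclei alone had a median of 2.93 steps of MTR4-null nuclei.

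**Figure D3:**
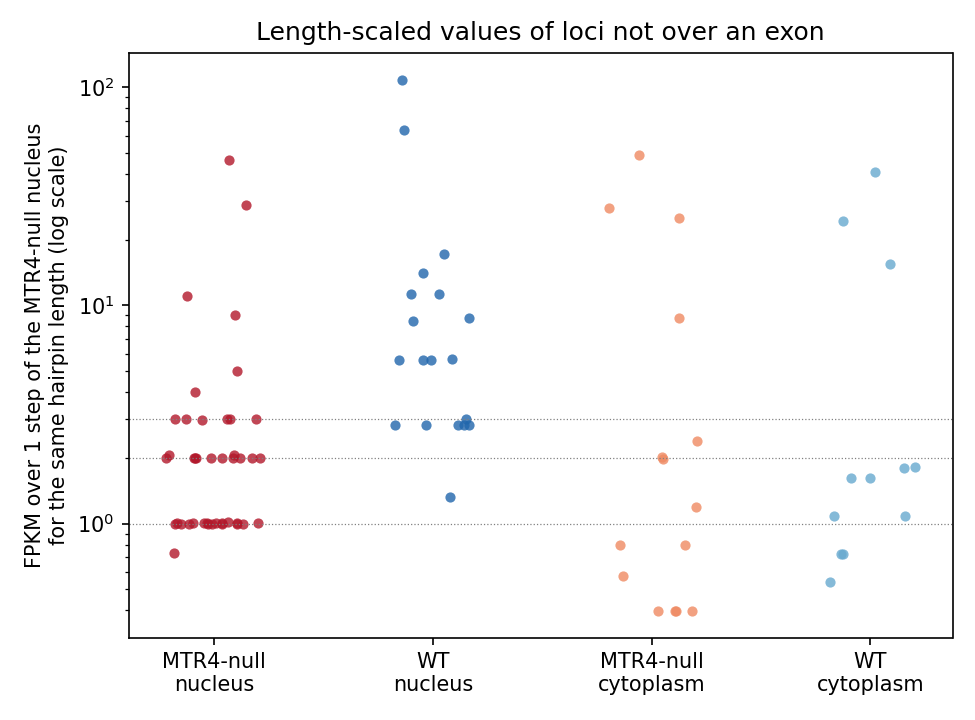
FPKM divided by 1 step of MTR4-null nuclei for the same hairpin length (vertical log axis) for loci that overlap no exon and reach 1 FPKM, with 1 point per locus in each of the 4 columns (horizontal axis) and dotted lines at 1, 2 and 3 steps. The commonest value is 1.001 steps in MTR4-null nuclei and 2.82 steps in WT nuclei.

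Between the nuclei, 77 of the 128 loci were higher in MTR4-null oocytes than in WT oocytes by 2-fold or more, 27 were lower by as much and 24 lay between, on log2(FPKM + 1). This scale understates the difference of low values. Over all 14270 rows, 23.9% were higher by 2-fold or more in MTR4-null nuclei and 12.3% lower, with a median difference of 0.21. The loci were chosen on these same columns, so their share cannot be read against that background. Of the 77 higher loci 68 were listed at 0 in WT nuclei, and of the 27 lower loci 12 were listed at 0 in MTR4-null nuclei. Where both nuclei were above 0 the balance was the other way round: of 36 such loci 9 were higher and 15 lower in MTR4-null, with a median log2 difference of -0.34. These 36 include values below 0.01 FPKM. At 1 FPKM or more in both nuclei there were 29 loci, 6 higher and 14 lower in MTR4-null, with a median of -0.49. Among loci with a hairpin length, 63 were at 1 FPKM or more in MTR4-null nuclei and at 0 in WT nuclei. On the length scale 27 of them lay below the lowest value seen in WT nuclei and 48 below the commonest one. Of the 9 loci with the opposite pattern, 0 lay below the lowest value seen in MTR4-null nuclei. When a zero counted only against a value above the lowest one of its column, 44 loci were higher in MTR4-null nuclei and 22 lower. This count covers only loci with a hairpin length, which by itself left out 6 of the 77 higher and 5 of the 27 lower loci.

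Among loci above 0 in both nuclei, Mir1893 and Mir5131 had the widest gaps on log2(FPKM + 1). Mir1893 stood at 3244 FPKM in MTR4-null nuclei against 0.0525 FPKM in WT nuclei, and at 1558 FPKM in MTR4-null cytoplasms against 543 FPKM in WT cytoplasms. Mir5131 had 2758 FPKM in MTR4-null nuclei and 3528 FPKM in MTR4-null cytoplasms, while both WT columns held values below 0.01 FPKM. This locus, over an exon of the phospholipase gene Ddhd1, was thus high in both MTR4-null columns and near 0 in both WT columns. Ddhd1 itself had 73.1 FPKM in MTR4-null nuclei against 121 FPKM in WT nuclei, and 45.2 FPKM in MTR4-null cytoplasms against 111 FPKM in WT cytoplasms. The gene and the hairpin inside its exon therefore stood on opposite sides of WT in both compartments, Ddhd1 by less than 2-fold on log2(FPKM + 1) between the nuclei.

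Mir5133 had the highest value of MTR4-null nuclei, 10078 FPKM, against 613 FPKM in WT nuclei. In the cytoplasm the order was reversed, with 250.4 FPKM in MTR4-null oocytes and 499.9 FPKM in WT oocytes, just short of 2-fold on log2(FPKM + 1). It overlaps an exon of Glce, which encodes an enzyme of heparan sulfate synthesis and had 59.3 FPKM in MTR4-null nuclei and 77.4 FPKM in WT nuclei. Mir3064 had 1085 FPKM in MTR4-null nuclei and was listed at 0 in WT nuclei, with 92.5 FPKM in MTR4-null cytoplasms and 169 FPKM in WT cytoplasms. Its exon belongs to Ddx5, a helicase that assists Drosha, at 119 FPKM in MTR4-null nuclei and 83.8 FPKM in WT nuclei. Mir5116, over an exon of Mmgt1, had 371 FPKM in MTR4-null nuclei and was listed at 0 in WT nuclei. Its cytoplasmic values were 2855 FPKM in MTR4-null oocytes and 386 FPKM in WT oocytes. Of these 3 loci only Mir5133 was present in all 4 columns.

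Mir3960 and Mir2861, 11 bp apart over an exon of Cdk9, a kinase of transcription elongation, were both listed at 0 in WT. Mir3960 had 332 FPKM in MTR4-null nuclei and 395 FPKM in MTR4-null cytoplasms and was listed at 0 in both WT columns. Mir2861 had 69.0 FPKM in MTR4-null nuclei and was listed at 0 in the other 3 columns. Here the surrounding gene stood apart in the same direction: Cdk9 had 32.3 FPKM in MTR4-null nuclei against 6.46 FPKM in WT nuclei, and 18.8 FPKM in MTR4-null cytoplasms against 3.63 FPKM in WT cytoplasms.

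Loci lower in MTR4-null nuclei included some of the highest microRNA values. Mir1901 had 678 FPKM in MTR4-null nuclei against 9976 FPKM in WT nuclei. Mir762 had 962 FPKM in MTR4-null nuclei against 5812 FPKM in WT nuclei, and 2789 FPKM in MTR4-null cytoplasms against 7560 FPKM in WT cytoplasms. Mir762 lies opposite an exon of Bcl7c, and the sources used here do not give the strand of counting, so fragments of overlapping genes on either strand cannot be told apart at any of these loci. Bcl7c was at 95.0 FPKM in MTR4-null nuclei and 122 FPKM in WT nuclei. Mir804 had 50.1 FPKM in MTR4-null nuclei against 1489 FPKM in WT nuclei and was listed at 0 in both cytoplasms. Mir705 had 57.6 FPKM in MTR4-null nuclei against 1183 FPKM in WT nuclei, and 8.20 FPKM in MTR4-null cytoplasms against 132 FPKM in WT cytoplasms. Its exon belongs to Rab11fip5, a vesicle trafficking gene at 16.2 FPKM in MTR4-null nuclei and 16.1 FPKM in WT nuclei. Mir465, outside other genes, was listed at 0 in MTR4-null nuclei and had 346 FPKM in WT nuclei.

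Mir1306 lies over an exon of Dgcr8, the partner of Drosha, whose mRNA is itself known to hold hairpins that Drosha cuts. The locus was below 0.01 FPKM in MTR4-null nuclei against 121 FPKM in WT nuclei, while Dgcr8 had 37.7 FPKM in MTR4-null nuclei against 11.1 FPKM in WT nuclei. In the cytoplasm Mir1306 had 10.1 FPKM in MTR4-null oocytes and was below 0.01 FPKM in WT oocytes. Dgcr8 had 21.5 FPKM in MTR4-null cytoplasms and 12.1 FPKM in WT cytoplasms.

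Between the cytoplasms, 36 loci were higher in MTR4-null oocytes by 2-fold or more, 18 lower and 74 between, of which 67 were at 0 in both. Over all rows 15.0% were higher by 2-fold or more in MTR4-null cytoplasms and 21.4% lower, with a median difference of -0.26. Of the 36 higher loci 21 were listed at 0 in WT cytoplasms, and of the 18 lower loci 9 were listed at 0 in MTR4-null cytoplasms. With both columns above 0 there were 30 loci, 15 of them higher and 9 lower. At 1 FPKM or more in both cytoplasms there were 24 loci, 11 higher and 7 lower, with a median log2 difference of 0.07. As the loci were chosen on these columns, their shares cannot be read against those over all rows. The small nucleolar and Cajal body RNA loci, by the same count, had 47 of 83 higher and 2 lower.

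The cytoplasm columns also differed in RNAs known to stay in the nucleus. Malat1, a long noncoding RNA retained there, had 69.6 FPKM in MTR4-null cytoplasms against 8.63 FPKM in WT cytoplasms, and 172.5 FPKM in MTR4-null nuclei against 181.5 FPKM in WT nuclei. The small nucleolar and Cajal body RNA loci held 27.3% of the column in MTR4-null cytoplasms against 0.892% in WT cytoplasms, and 46.5% in MTR4-null nuclei against 50.8% in WT nuclei. Most of this was Scarna2, a Cajal body RNA, at 100235 FPKM in MTR4-null cytoplasms and 3428 FPKM in WT cytoplasms. Nuclear RNAs were thus higher in MTR4-null cytoplasms together with microRNA loci, and their part in the microRNA values was not tested.

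High values of MTR4-null cytoplasms came with zeros or low values in WT at several loci. Mir1894, over an exon of the phosphatase regulator Ppp1r10, had 1150 FPKM in MTR4-null cytoplasms and was listed at 0 in WT cytoplasms, with 515 FPKM in MTR4-null nuclei and 48.7 FPKM in WT nuclei. Mir135a-1 had 768 FPKM in MTR4-null cytoplasms and 72.6 FPKM in MTR4-null nuclei and was listed at 0 in both WT columns. Both loci were thus higher in MTR4-null in either compartment. Mir3074-2 had 810 FPKM in MTR4-null cytoplasms and was listed at 0 in the other 3 columns. Mir1247, over an exon of Dio3os, had 1483 FPKM in MTR4-null cytoplasms against 50.0 FPKM in WT cytoplasms, and 138 FPKM in MTR4-null nuclei against 45.7 FPKM in WT nuclei. Dio3os, an antisense transcript at the imprinted deiodinase gene Dio3, had 11.3 FPKM in MTR4-null cytoplasms against 0.352 FPKM in WT cytoplasms, so locus and surrounding transcript differed in the same direction. Mir686, over an exon of the proteasome gene Psmb5, had 405 FPKM in MTR4-null cytoplasms against 0.646 FPKM in WT cytoplasms. Mir1892 had 383 FPKM in MTR4-null cytoplasms against 4.89 FPKM in WT cytoplasms and was at or near 0 in both nuclei.

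Fewer loci were lower in MTR4-null cytoplasms. Mir22, a microRNA known from heart muscle, had 14.7 FPKM in MTR4-null cytoplasms against 911 FPKM in WT cytoplasms. Its nuclear values ran the other way, with 413 FPKM in MTR4-null oocytes and 21.6 FPKM in WT oocytes. Its host transcript Mir22hg, listed under an older symbol, had 6.15 FPKM in MTR4-null cytoplasms against 9.83 FPKM in WT cytoplasms, and 9.35 FPKM in MTR4-null nuclei against 4.82 FPKM in WT nuclei. Mir22hg and the locus thus differed in the same direction in each compartment, Mir22hg by less than 2-fold on log2(FPKM + 1). The locus also lies over an exon of Tlcd2 on the same strand, which had 694 FPKM in MTR4-null cytoplasms against 2992 FPKM in WT cytoplasms, and 1646 FPKM in MTR4-null nuclei against 2991 FPKM in WT nuclei. Tlcd2 was lower in MTR4-null in both compartments, opposite to the locus in the nucleus, where Tlcd2 differed by less than 2-fold on log2(FPKM + 1). Mir678, over an exon of the arginine methyltransferase gene Prmt2, was below 0.01 FPKM in MTR4-null cytoplasms and in both nuclei and had 304 FPKM in WT cytoplasms. Mir1941, Mir207 and Mir568 were listed at 0 in MTR4-null cytoplasms and had 52.5, 68.3 and 46.9 FPKM in WT cytoplasms. Across both compartments, 19 loci stood 2-fold or more above WT in MTR4-null nuclei and MTR4-null cytoplasms alike, 3 stood below in both and 13 in opposite directions. Over all 14270 rows the shares were 9.59%, 5.07% and 1.23% in that order, and the loci, having been chosen on these columns, cannot be read against them.

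In both genotypes more loci were higher in the nucleus than lower. Between compartments of MTR4-null oocytes, 79 loci had a nuclear value higher by 2-fold or more and 21 a lower one, while over all rows 17.0% were higher and 1.84% lower. Of the 79 higher loci 60 were listed at 0 in MTR4-null cytoplasms, and of the 21 lower loci 7 were listed at 0 in MTR4-null nuclei. For 53 loci with a hairpin length that had 1 FPKM or more in the nucleus and 0 in the cytoplasm, 0 lay below the lowest value seen in MTR4-null cytoplasms. Of the 7 loci with the opposite pattern, 2 lay below the lowest value seen in MTR4-null nuclei and 5 below the commonest one. In WT oocytes 34 loci had a nuclear value higher by 2-fold or more, 21 had a lower one and 63 were at 0 in both compartments, while over all rows 12.4% were higher and 4.71% lower. Of the 34 higher loci 26 were listed at 0 in WT cytoplasms, and of the 21 lower loci 17 were listed at 0 in WT nuclei. Among loci with a hairpin length, 21 had 1 FPKM or more in WT nuclei and 0 in WT cytoplasms, and 0 of them lay below the lowest value seen in WT cytoplasms. Of 16 with the opposite pattern, 6 lay below the lowest value seen in WT nuclei and 15 below the commonest one. These 2 compartment comparisons use the same 4 columns as the genotype comparisons, so the counts are not independent of each other. As the loci were chosen on these columns, 50 of them through MTR4-null nuclei alone, their shares cannot be read against those over all rows.

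Mir1949 was purely nuclear, at 751 FPKM in MTR4-null nuclei and 733 FPKM in WT nuclei, and listed at 0 in both cytoplasms. Mir1940 had 5026 FPKM in MTR4-null nuclei and 3355 FPKM in MTR4-null cytoplasms, against 10259 FPKM in WT nuclei and 33.0 FPKM in WT cytoplasms. The excess of the nucleus over the cytoplasm at this locus was thus far wider in WT.

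Only 13 loci reached 1 FPKM in all 4 columns, yet they held 57.2% of the microRNA signal in MTR4-null nuclei, 84.2% in WT nuclei, 51.5% in MTR4-null cytoplasms and 82.1% in WT cytoplasms. They were Mir1199, Mir1247, Mir1901, Mir1940, Mir22, Mir3471-1, Mir5122, Mir5133, Mir680-2, Mir703, Mir705, Mir719 and Mir762. The most even was Mir703, in an intron on the opposite strand of Cfap299, with 99.8 FPKM in MTR4-null nuclei, 128 FPKM in WT nuclei, 252 FPKM in MTR4-null cytoplasms and 220 FPKM in WT cytoplasms. Mir719, partly over an exon of the nucleoporin gene Nupl1, was even between genotypes and higher in the nucleus. It had 672 FPKM in MTR4-null nuclei and 614 FPKM in WT nuclei, and 134 FPKM in MTR4-null cytoplasms and 139 FPKM in WT cytoplasms. Mir1199 was high in both MTR4-null columns, at 409 FPKM in the nucleus and 492 FPKM in the cytoplasm, against 16.5 FPKM in WT nuclei and 7.90 FPKM in WT cytoplasms. Mir680-2 had 250 FPKM in MTR4-null nuclei against 940.5 FPKM in WT nuclei, and 425 FPKM in MTR4-null cytoplasms against 134 FPKM in WT cytoplasms. Mir3471-1 had 189 FPKM in MTR4-null nuclei and 259 FPKM in WT nuclei, and 35.8 FPKM in MTR4-null cytoplasms and 166 FPKM in WT cytoplasms.

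**Figure D4:**
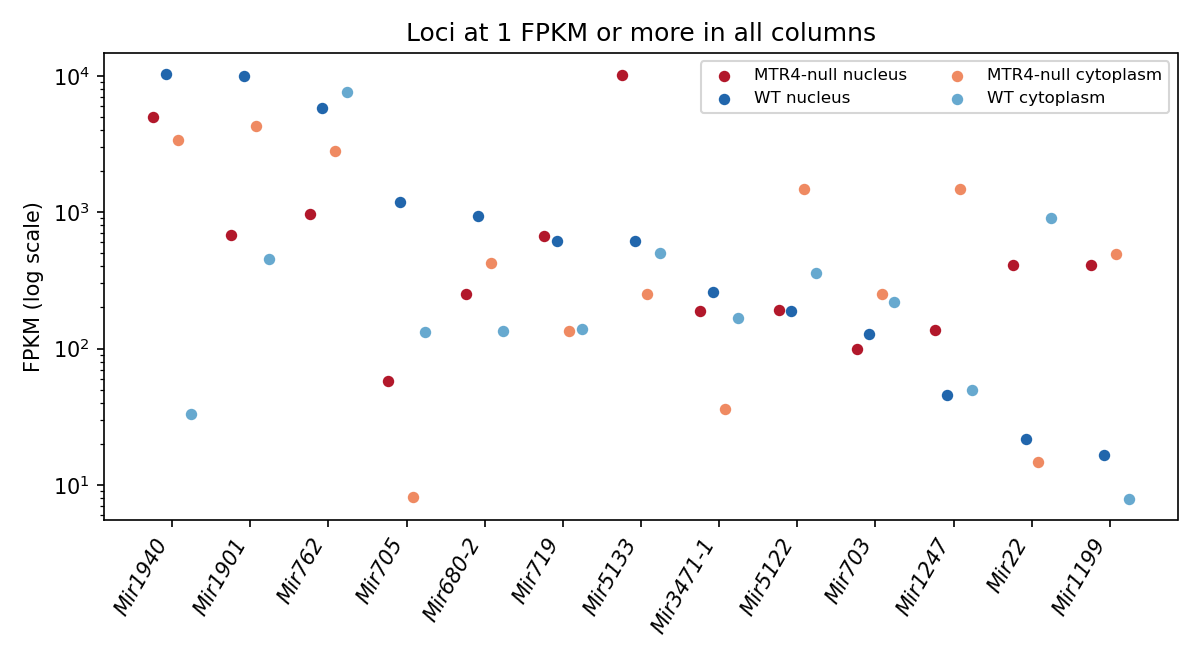
FPKM (vertical log axis) of the 13 loci at 1 FPKM or more in all 4 columns (horizontal axis), with 1 point per column: dark red MTR4-null nucleus, dark blue WT nucleus, orange MTR4-null cytoplasm and light blue WT cytoplasm. Mir703 and Mir719 differ little between genotypes, while Mir5133 reaches 10078 FPKM in MTR4-null nuclei against 613 FPKM in WT nuclei.

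In each column, loci over an exon of another gene had a higher median FPKM than loci in introns or outside genes, an order that did not hold throughout once hairpin length was allowed for. By GENCODE annotation (vM21, GRCm38), 58 of the 114 loci with coordinates overlap an exon of another gene, 33 lie in an intron and 23 lie outside other genes. Of the exon loci 42 lie wholly within an exon on its strand and 7 on the opposite strand of the exon, wholly or in part, and of the intron loci 27 are on the strand of the gene. The median of values at 1 FPKM or more was 73.8 FPKM for exon loci, 32.4 FPKM for intron loci and 45.2 FPKM for loci outside genes in MTR4-null nuclei. In WT nuclei it was 189, 102 and 142 FPKM in that order, in MTR4-null cytoplasms 92.5, 25.7 and 23.2 FPKM, and in WT cytoplasms 132, 60.4 and 21.5 FPKM. The median hairpin was 82 nt with 55.5% GC over exons, 86 nt with 52.3% GC in introns and 95 nt with 46.2% GC outside genes. In steps of the same hairpin length, the medians were 2.01 over exons, 1.99 in introns and 2.07 outside genes in MTR4-null nuclei, and 4.27, 3.02 and 7.07 steps in WT nuclei. They were 3.17, 1.19 and 1.38 steps in MTR4-null cytoplasms and 2.08, 1.63 and 1.27 steps in WT cytoplasms. On the length scale exon loci were thus highest in both cytoplasms and in neither nucleus. The highest intron locus reached 209 FPKM in MTR4-null nuclei, at Mir3091, and 128 FPKM in WT nuclei, at Mir703. The exon loci summed to 20968 FPKM in MTR4-null nuclei and 11151 FPKM in WT nuclei, and to 18043 FPKM in MTR4-null cytoplasms and 11097 FPKM in WT cytoplasms. The 14 loci without coordinates, Mir1940 and Mir1901 among them, belong to none of these classes. They summed to 9979 FPKM in MTR4-null nuclei and 21576 FPKM in WT nuclei. Their sums in the cytoplasm were 9161 FPKM in MTR4-null oocytes and 1055 FPKM in WT oocytes.

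In each position class more loci were higher than lower in MTR4-null nuclei. Exon loci were higher in MTR4-null nuclei in 39 of 58 cases and lower in 8, intron loci higher in 21 of 33 and lower in 7, and loci outside genes higher in 11 of 23 and lower in 7, where all rows had 23.9% higher and 12.3% lower. All 21 higher intron loci and all 11 higher loci outside genes were listed at 0 in WT nuclei, as were 31 of the 39 exon loci. Between the cytoplasms 23 exon loci were higher in MTR4-null and 9 lower, while intron loci split 4 and 4 and loci outside genes 6 and 4, where all rows had 15.0% higher and 21.4% lower. Without the exon loci and those without coordinates, 32 loci were higher and 14 lower in MTR4-null nuclei, and 10 higher and 8 lower in MTR4-null cytoplasms. As the loci were chosen on these columns, their shares cannot be read against those over all rows.

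Between the nuclei, and among exon pairs of the cytoplasms, more loci than surrounding genes were 2-fold apart. In the nucleus, 39 exon loci could be paired with a gene at 1 FPKM or more in either column: 22 of these loci were higher and 7 lower in MTR4-null, against 8 and 2 of the paired genes. In 6 pairs locus and gene were 2-fold apart in the same direction and in 1 pair in opposite directions. The median log2 difference was 3.38 for these loci and 0.50 for the paired genes. Of 28 intron pairs 19 loci were higher and 6 lower in MTR4-null nuclei, against 5 and 2 of the genes, with 6 pairs in the same direction and 0 in opposite ones. In the cytoplasm 20 of 38 paired exon loci were higher and 8 lower in MTR4-null, against 6 and 6 of the genes. Among 27 intron pairs of the cytoplasms it was the genes that were more often 2-fold apart, 6 higher and 8 lower in MTR4-null, against 3 and 2 of the loci. The medians there were -0.36 for the genes and 0 for the loci. Some genes hold 2 of the loci, so pairs are not all separate. Over all rows 23.9% were higher and 12.3% lower in MTR4-null nuclei, and 15.0% higher and 21.4% lower in MTR4-null cytoplasms. The loci were chosen on values in these columns, so their counts cannot be read against those shares or as wider than those of the genes by nature.

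**Figure D5:**
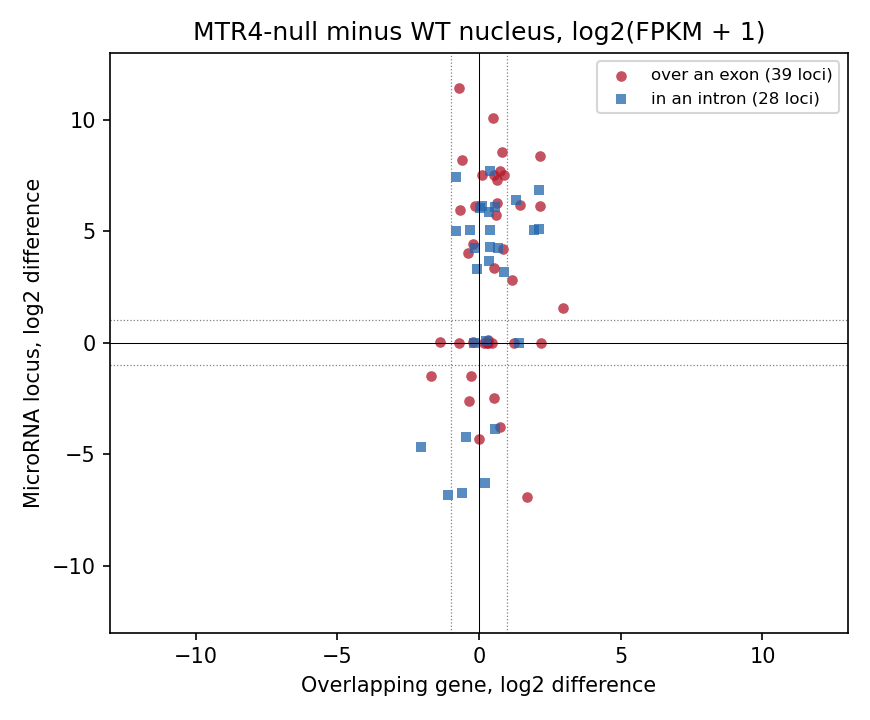
Difference of log2(FPKM + 1), MTR4-null minus WT nucleus, of each microRNA locus (vertical axis) against that of the gene it lies in (horizontal axis), with red circles for the 39 loci over an exon and blue squares for the 28 in an intron. Dotted lines mark 2-fold, and the loci spread far wider than the genes, with medians of 3.38 against 0.50 for exon pairs. The loci were chosen on values in these columns.

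Named families contributed few loci, most of them at 1 or 2 steps in MTR4-null nuclei. Of 12 let-7 rows 4 reached the threshold, all in MTR4-null nuclei alone: Mirlet7c-2 at 16.7 FPKM, Mirlet7d at 11.6 FPKM, Mirlet7f-1 at 45.5 FPKM and Mirlet7i at 28.6 FPKM. These correspond to 0.998, 0.997, 2.0003 and 1.001 steps, and Mirlet7d and Mirlet7f-1 lie 1714 bp apart on the same strand over exons of the long noncoding RNA 6720427I07Rik. Mir1961, which carries the same seed, had 8.05 FPKM there. The family sum was 102 FPKM in MTR4-null nuclei and 0 in the other columns. Mirlet7c-2, Mirlet7d, Mirlet7i and Mir1961 lay below 1.32 steps, the lowest value in WT nuclei among loci that overlap no exon. Their zeros in WT nuclei thus do not show a difference. Mirlet7f-1 lay below 2.82 steps, the commonest value in WT nuclei among such loci.

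Of 16 rows of the miR-17-92 cluster and its paralogues 4 reached the threshold, again in MTR4-null nuclei alone. Mir19a had 138 FPKM, Mir18 15.9 FPKM and Mir20a 9.79 FPKM, and these loci lie 53 and 75 bp apart within the host transcript Mir17hg. Mir106b, in an intron of the replication helicase gene Mcm7, had 69.0 FPKM. The host transcript Mir17hg had 0.953 FPKM in MTR4-null nuclei against 0.159 FPKM in WT nuclei, and 0.512 FPKM in MTR4-null cytoplasms against 0.0571 FPKM in WT cytoplasms. Neighbouring hairpins of 1 transcript thus stood at 4.01, 0.998 and 0.999 steps. Mir18 and Mir20a lay below 1.32 steps, the lowest value in WT nuclei among loci that overlap no exon. Their zeros in WT nuclei thus do not show a difference. Mir106b, at 2.004 steps, lay below the commonest value there, 2.82 steps, and Mir19a above it.

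Of 45 rows of the imprinted Dlk1-Dio3 cluster 3 reached the threshold: Mir485 at 133 FPKM, Mir300 at 126 FPKM and Mir433 at 5.12 FPKM, all in MTR4-null nuclei alone. The 45 rows do not include Mir1247, described above, which lies over Dio3os at the Dio3 end and was present in all 4 columns. The miR-290 cluster, abundant in embryonic stem cells, had 1 of 7 rows, Mir290, at 183 FPKM in WT nuclei alone. The miR-200 family, linked to epithelial identity, had Mir141 at 72.3 FPKM in MTR4-null nuclei alone. On the length scale Mir433 stood at 0.991 steps, Mir141 at 0.998, Mir485 at 1.998 and Mir300 at 3.005 in MTR4-null nuclei. Mir433 and Mir141 lay below 1.32 steps, the lowest value in WT nuclei among loci that overlap no exon. Their zeros in WT nuclei thus do not show a difference. Mir485 lay below the commonest value there, 2.82 steps. The cluster in an intron of Sfmbt2 had 1 of 39 rows, Mir466i, at 17.5 FPKM in MTR4-null nuclei alone. The miR-30 and miR-15/16 families, with 6 rows each, had 0 loci at the threshold.

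Neighbouring loci did not always appear together. Within 10 kb of each other lay 10 pairs made of 17 loci. Mir191 and Mir425, 384 bp apart over exons of the noncoding RNA 4833445I07Rik, had 306 and 172 FPKM in MTR4-null nuclei and were listed at 0 in WT nuclei. On the length scale these values were 5.00 and 6.01 steps. In MTR4-null cytoplasms Mir425 had 114 FPKM and Mir191 was listed at 0, and both were listed at 0 in WT cytoplasms. Mir3074-1 and Mir24-1 overlap on opposite strands; the mature strands they are named for are shown with the seed in capitals.
miR-3074-5p (Mir3074-1): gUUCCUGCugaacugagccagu
miR-24-3p (Mir24-1): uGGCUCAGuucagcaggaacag

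Despite this overlap their values parted. Mir3074-1 had 28.6 FPKM in MTR4-null nuclei against 404 FPKM in WT nuclei, and 11.4 FPKM in MTR4-null cytoplasms while listed at 0 in WT cytoplasms. Mir24-1 had 210 FPKM in MTR4-null nuclei and was listed at 0 in the other 3 columns. Their hairpins are 85 and 68 nt long, and in MTR4-null nuclei they stood at 1.001 and 1.99 steps, a narrower gap than in FPKM. The MTR4-null cytoplasm value of Mir3074-1 was 0.398 steps, near the lowest of that column.

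Genes that make and use microRNAs had transcripts in all columns. Of 24 genes of microRNA processing, silencing and nuclear RNA decay all were in the table and 23 reached 1 FPKM in some column. Between the nuclei 6 were higher in MTR4-null by 2-fold or more (Dgcr8, Tnrc6a, Ddx17, Srrt, Ncbp1 and Zfc3h1) and 4 lower (Ago3, listed as Eif2c3, Tnrc6b, Lin28b and Mtr4 itself), against 23.9% higher and 12.3% lower over all rows. The median log2 difference was 0.01, against 0.21 over all rows. The nuclease Drosha had 28.8 FPKM in MTR4-null nuclei and 32.6 FPKM in WT nuclei. Dicer1 had 102 FPKM in MTR4-null nuclei and 103 FPKM in WT nuclei, and 66.1 FPKM in MTR4-null cytoplasms and 104 FPKM in WT cytoplasms. Both core nucleases were thus less than 2-fold apart between the nuclei, while Dgcr8 was among the 6 higher genes. Between the cytoplasms 2 were higher in MTR4-null (Tnrc6a and Ncbp1) and 6 lower (Xpo5, Tarbp2, Ago3, Tnrc6b, Lin28b and Mtr4), against 15.0% higher and 21.4% lower over all rows, with a median of -0.26. Xpo5, the export factor, had 9.33 FPKM in MTR4-null cytoplasms and 24.5 FPKM in WT cytoplasms. The Argonaute gene Ago2 had 16.1 FPKM in MTR4-null nuclei and 10.4 FPKM in WT nuclei.

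The targeted gene was lower in both MTR4-null columns and oocyte markers were present in all columns, while the nuclear RNAs given above were present in MTR4-null cytoplasms. The Mtr4 transcript, listed as Skiv2l2, had 2.91 FPKM in MTR4-null nuclei against 16.2 FPKM in WT nuclei, and 2.51 FPKM in MTR4-null cytoplasms against 21.6 FPKM in WT cytoplasms. All 10 oocyte markers were above 1 FPKM, with sums of 9452 FPKM in MTR4-null nuclei, 7832 FPKM in WT nuclei, 5832 FPKM in MTR4-null cytoplasms and 9453 FPKM in WT cytoplasms. Between WT nuclei and WT cytoplasms 0 of them were 2-fold apart, with a median log2 difference of -0.19, against -0.04 over all rows. In MTR4-null oocytes 2 were higher in the nucleus and 0 lower. These markers therefore do not tell the WT compartments apart. Of 12 markers of granulosa cells, which surround the oocyte, 11 reached 1 FPKM in some column, with sums of 38.5, 66.1, 34.3 and 44.4 FPKM in that order. Single markers went both ways between the nuclei: Amh had 1.44 FPKM in MTR4-null nuclei and was the marker listed at 0 in WT nuclei, while the steroid enzyme gene Cyp11a1 had 1.47 FPKM in MTR4-null nuclei and 21.3 FPKM in WT nuclei. The part of such RNA in the microRNA values was not tested.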

How the data were processed

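Total RNA of 9 libraries of day 21 mouse oocyte nuclei and cytoplasms was depleted of ribosomal RNA and read as paired ends of 150 bp, per the labels' protocols. The authors deposited 1 table of FPKM with 1 column per group, and the submitters' processing notes name TopHat2 2.1.1, Cufflinks 2.2.1 and the build mm9 without settings or roles. How many libraries stand behind each column is uncertain, and the sources used here do not give the read depth. A row without a gene name was left out. In each column it made up 50% of the sum with it included, so it equals the total of the named rows.

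Differences were taken on log2(FPKM + 1) over the 14270 rows at 1 FPKM or more in at least 1 column, and called at 2-fold. The planned limma fit needs a column per library and could not be run. Hairpins and mature strands came from RefSeq and overlapping genes from GENCODE vM21, both on GRCm38, so only relations between genes and not mm9 positions were used. The members and lists were chosen with earlier results of these data known. Loci were named by size: the 5 largest differences in each direction per comparison among loci at 5 FPKM or more, the 3 largest among loci above 0 in both columns, the 5 highest per column, loci at 1 FPKM or more in all columns, and family members. Other loci in the text, the length steps, positions, neighbours and pairs with surrounding genes were chosen after values were seen. The step curve is a polynomial of degree 4 of the logarithm of FPKM on that of length. The counts and the curve were tested on simulated data. The simulated counts started from rows at 5 FPKM or more in WT nuclei and held no zeros, so calls that rest on a zero were not tested. The curve was tried only on planted whole multiples. Alternatives were pseudocounts of 0.1 and 5, no filter or one at 5 FPKM, centring, quantile normalization, and subsets of loci. Python 3.11.15, pandas 2.3.3, numpy 2.4.6 and matplotlib 3.10.9 were used. The gene around 1 locus is not reported here.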

Additional observations from a re-analysis of the deposited data

Results flagged for a closer look

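At 13 loci the 2 compartments moved apart in opposite directions between genotypes, each by at least 2-fold on log2(FPKM + 1), as did 1.23% of all 14270 rows. The value given for each is the MTR4-null minus WT log2 difference of the nucleus minus that of the cytoplasm. With 1 column per group this difference was not tested. As the loci were chosen on these columns, their share cannot be read against that over all rows.

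At 4 loci the nuclear value was high in MTR4-null relative to WT and the cytoplasmic one low, or listed at 0. The value was 10.80 for Mir1941, 10.06 for Mir22, 7.79 for Mir1905 and 5.95 for Mir365-2. Mir365-2 had 8.05 FPKM in MTR4-null nuclei and was listed at 0 in WT nuclei, and was listed at 0 in MTR4-null cytoplasms with 5.83 FPKM in WT cytoplasms. Mir365-2 and Mir1941 each stood at 1.002 steps in MTR4-null nuclei. The lowest value in WT nuclei was 1.32 steps among loci that overlap no exon, so their zeros there do not show a difference.

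At the other loci the nucleus was low and the cytoplasm high in MTR4-null oocytes. The value was -15.37 for Mir465, -10.41 for Mir1306, -7.65 for Mir1940, -7.57 for Mir763, -7.40 for Mir3074-1, -7.10 for Mir1901, -6.79 for Mir704, -6.59 for Mir194-2 and -3.57 for Mir680-2. Mir763, in an intron of Hmga2, had 6.03 FPKM in MTR4-null nuclei against 102 FPKM in WT nuclei, and 12.0 FPKM in MTR4-null cytoplasms while listed at 0 in WT cytoplasms. Mir194-2 had 27.0 FPKM in MTR4-null nuclei against 229 FPKM in WT nuclei, and 10.7 FPKM in MTR4-null cytoplasms while listed at 0 in WT cytoplasms. Mir194-2 and Mir3074-1 each stood at 0.398 steps in MTR4-null cytoplasms. The lowest value in WT cytoplasms was 0.542 steps among loci that overlap no exon, so their zeros there do not show a difference.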

How the results depend on the processing

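No paired analysis was possible because the table holds 1 column per group, and for the same reason leaving out each replicate was not run. Of the 8 counts of loci at least 2-fold apart, pseudocounts of 0.1 and 5, a filter at 5 FPKM or none, centring, quantile normalization and leaving out host transcripts kept each within 1.5 times. Counting only loci above 0 in both columns left 9 higher and 15 lower in MTR4-null nuclei against WT nuclei, 15 higher and 9 lower in MTR4-null cytoplasms against WT cytoplasms, 19 higher and 14 lower in MTR4-null nuclei against its cytoplasm, and 8 higher and 4 lower in WT nuclei against its cytoplasm. Leaving out loci over an exon or without coordinates gave 32 and 14, 10 and 8, 38 and 6, and 17 and 7 in the same order. Counting a zero only against a value above the lowest one in its column, among loci with a hairpin length, gave 44 higher in MTR4-null nuclei than in WT nuclei and 13 lower in WT nuclei than in its cytoplasm. The settings on exons and on zeros were chosen after seeing the data, and each tests fewer loci by construction. No named locus that was 2-fold apart changed sign under any setting run. Among those less than 2-fold apart, 13 values changed sign, all under centring or quantile normalization, at Mir1892, Mir1949, Mir5122, Mir546 and Mir719. Mir719 between cytoplasms, for example, was -0.05 (log2) as reported, 0.21 centred and 0.60 quantile normalized. In all, 898 values kept their side of the 2-fold line, 8 passed it newly and 6 fell below it. The error of every value is unknown, since depth and spread between libraries are not given.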
